A study of Bos taurus and Capra hircus with 9 samples.

Results

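The miRNAs described here are those of the imprinted cluster that runs from miR-127 to miR-410 and its flanks. They were taken from the deposited table of bovine miRNA entries by the number in their name, with 42 numbers known to belong to this cluster, and 32 of the 296 entries of the table carried one of them. The entries were measured in milk-derived extracellular vesicles (EVs) of 4 goats (C_017, C_044, C_079 and C_127) and 5 cows (B1, B2, B3, B20 and B62), with 1 small RNA library per animal. The goats were primiparous Alpine animals at 26 ± 9 days postpartum, and the cows were Holstein Friesian at 30 ± 7 days postpartum. The animals received no treatment that the labels state, and the groups differed in species, breed and farm and in an additional acetic acid step applied to goat milk, so these cannot be told apart. In both species, somatic cells and fat were removed from milk by centrifugation before EVs were isolated on a sucrose gradient. Goat reads were counted on bovine sequences as well.

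Imprinted genes are transcribed from only the maternal or only the paternal chromosome. This cluster lies between the imprinted genes DLK1 and DIO3, is found in placental mammals, and is transcribed from the maternal chromosome as long non-coding RNAs from which many miRNAs are cut. Its miRNAs are known for high levels in brain, placenta and embryonic tissues, and the callipyge muscle phenotype of sheep maps to the same domain. In the RefSeq annotation of the ARS-UCD2.0 bovine assembly, all 32 entries matched a miRNA gene of chromosome 21, with 31 genes in all because miR-369-5p and miR-369-3p come from the arms of 1 hairpin. The annotation placed 58 miRNA genes from MIR493, the first, to MIR656, the last, and besides the 31 matched here it held MIR134, whose entry is described further on. No coordinates are given because the build behind the deposited values is not stated in the sources used here. Among the remaining genes, those with 1 of the 42 numbers had no entry of their own in the table. The others were not analysed here, apart from a fixed list described further on.

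Mature sequences of the 13 entries that reached a mean of 10 TPM in goats (TPM are tag numbers scaled to the same total in each library) are shown first, since they carry most of the signal. They are written as DNA as in the table, with the seed (bases 2 to 8, which a miRNA uses to recognise its targets) in capitals.
miR-411a: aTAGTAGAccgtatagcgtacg
miR-379: tGGTAGACtatggaacgtagg
miR-127: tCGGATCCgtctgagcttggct
miR-381: tATACAAGggcaagctctctgt
miR-154c: aGATATTGcacggttgatctct
miR-494: tGAAACATacacgggaaacctc
miR-493: tGAAGGTCtactgtgtgccagg
miR-382: gAAGTTGTtcgtggtggattcg
miR-411c-5p: gGTTGATCagagaacatacatt
miR-323: gCACATTAcacggtcgacctct
miR-543: aAACATTCgcggtgcacttctt
miR-370: gCCTGCTGgggtggaacctggt
miR-487b: aATCGTACagggtcatccactt

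All 32 entries had different seeds, and none of these seeds was shared with any other entry of the table. Mature lengths ran from 20 to 23 bases. The smallest number of single-base changes between an entry of the cluster and any other entry of the table was 4, between miR-543 and miR-495. Some entries shared a stretch outside or shifted against the seed, and the 2 longest such stretches are shown in capitals because these entries resemble each other most. The first pair shares 13 bases, which start at base 2 of miR-369-3p and at base 1 of miR-655, so that the same letters give different seeds.
miR-369-3p: aATAATACATGGTTgatcttt
miR-655: ATAATACATGGTTaacctctct
The second pair shares the last 12 bases.
miR-543: aaacattcgcGGTGCACTTCTT
miR-495: aaacaaacatGGTGCACTTCTT
Each stretch occurred in no more than these 2 entries of the table.

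Goat milk EVs held far more of this cluster than cow milk EVs. The 32 entries added up to 1392 TPM in goat 17, 658 TPM in goat 44, 972 TPM in goat 79 and 1367 TPM in goat 127. In cows the sum was 7 TPM in cow 1, 27 TPM in cow 2, 8 TPM in cow 3, 31 TPM in cow 20 and 34 TPM in cow 62. The species did not overlap, with the lowest goat at 658 TPM and the highest cow at 34 TPM. The sum averaged 1097 ± 350 TPM over the goats (SD, n = 4), while the cows averaged 21.4 ± 12.9 TPM (SD, n = 5), a ratio of means of 51.3, which ran from 43.9 to 60.1 when 1 animal was left out. No test is given for this sum, because the entries were chosen with earlier results of these data known. In EV preparations, fewer vesicles of a cell type and less of a miRNA per vesicle cannot be told apart.

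**Figure D1:**
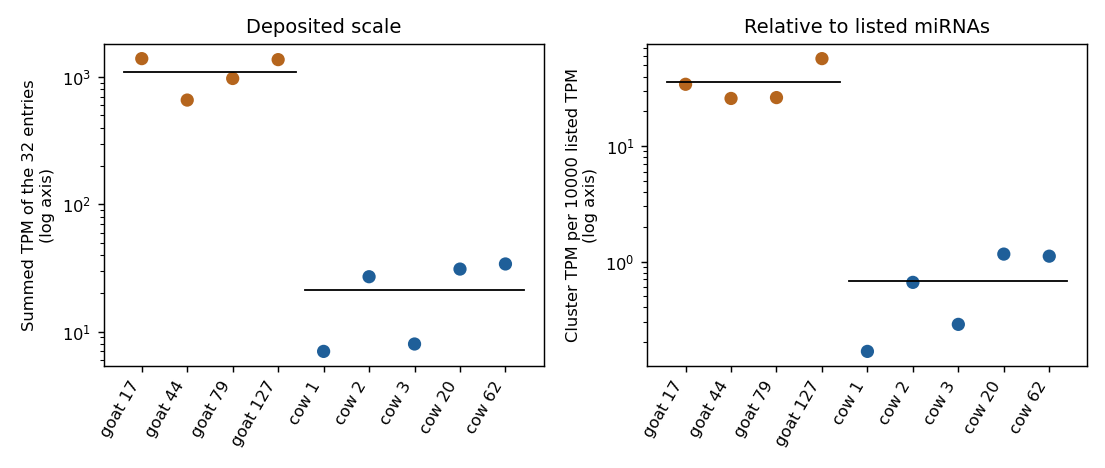
Each point is 1 animal and each line is the mean of its species. The left panel plots the summed TPM of the 32 entries and the right panel the same sum per 10000 TPM of all listed miRNAs, both on log axes. The 4 goats lie between 658 and 1392 TPM and the 5 cows between 7 and 34 TPM.

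The difference was of the same order when each library was taken relative to its own listed miRNAs. Per 10000 listed TPM, the cluster took 34.3, 25.8, 26.3 and 57.1 TPM in goats 17, 44, 79 and 127. The cows had 0.167, 0.660, 0.286, 1.16 and 1.11 TPM in the order 1, 2, 3, 20 and 62. Goat 127 thus stood highest on this scale, with the lowest listed total of all animals (239233 TPM), while goats 44 and 79 were almost level. Even in goats the cluster remained a small part of the miRNome, at 0.359 ± 0.147% of the listed TPM (SD, n = 4), against 0.00677 ± 0.00457% in cows (SD, n = 5).

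Most entries of the cluster were found in every goat, and few in any cow. Goats 17, 44, 79 and 127 had 31, 28, 30 and 32 of the 32 entries above 0. Cows 1, 2, 3, 20 and 62 had 3, 8, 5, 7 and 7. A total of 23 entries was listed at 0 in all 5 cows, and 0 entries of the cluster had a higher mean in cows. Of the 264 entries outside the cluster, 52.3% had a higher mean in goats. Of all 296 entries of the table, 49 were seen in goats and not in cows. The 23 made up 46.9% of these 49 and 71.9% of the cluster, which itself was 10.8% of the table. Of the 34 entries seen in cows and not in goats, 0 belonged to the cluster. Every goat was above every cow for 28 of the 32 entries, against 25.3% of all 296 entries. The other 4, miR-665, miR-376e, miR-299 and miR-377, did not exceed 2 TPM in any library. The libraries' mean read number was higher for goats in the authors' account, and its part in the number of entries found was not tested.

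Of the 32 entries, miR-411a, miR-379 and miR-127 were present in all 9 animals. miR-411a, which neighbours miR-379 in the annotation, was the most abundant of the cluster in both species. It reached 367, 154, 293 and 357 TPM in goats 17, 44, 79 and 127. In cows 1, 2, 3, 20 and 62 it was at 4, 12, 4, 13 and 16 TPM. By mean TPM it took rank 54 of the table in goats and rank 140 in cows. Its mean was 293 ± 98.1 TPM (SD, n = 4) against 9.80 ± 5.50 TPM (SD, n = 5), and the log2 difference, goat minus cow on the log2(TPM + 1) scale, was 4.87 (standard error 0.42, adjusted p = 8.42e-08, limma with Benjamini-Hochberg adjustment).

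miR-379 heads the large distal block of the cluster, which in rat neurons is transcribed in response to activity. It was at 262, 107, 200 and 217 TPM in goats 17, 44, 79 and 127, and at 2, 3, 1, 7 and 7 TPM in cows 1, 2, 3, 20 and 62. Goat 44 was lowest and cows 20 and 62 highest, as for miR-411a, and the species were far apart. Goats averaged 197 ± 65.1 TPM (SD, n = 4), whereas cows averaged 4.00 ± 2.83 TPM (SD, n = 5). The log2 difference was 5.44 (standard error 0.43, adjusted p = 3.86e-08, limma).

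miR-127 is encoded opposite RTL1, a retrotransposon-derived gene needed in the mouse placenta, and in mouse it directs the cleavage of the RTL1 transcript. Its levels were 189, 95, 106 and 149 TPM in goats 17, 44, 79 and 127, and 1, 4, 1, 4 and 4 TPM in cows 1, 2, 3, 20 and 62. The lowest goat, 44, was at 95 TPM while no cow passed 4 TPM. Goats averaged 135 ± 43.0 TPM (SD, n = 4), whereas cows averaged 2.80 ± 1.64 TPM (SD, n = 5), with a log2 difference of 5.24 (standard error 0.38, adjusted p = 1.65e-08, limma). It passed the filter of this test (more than 1 TPM in at least 4 libraries) through the goats, so the direction was in effect fixed.

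miR-381 and miR-154c came next and were above 0 in 4 of the 5 cows. miR-381 was at 93, 47, 82 and 147 TPM in goats 17, 44, 79 and 127, and at 0, 3, 1, 2 and 3 TPM in cows 1, 2, 3, 20 and 62. Goat 127 was highest here, not goat 17. The log2 difference of miR-381 was 5.11 (standard error 0.44, adjusted p = 7.62e-08, limma). miR-154c was at 100, 53, 70 and 109 TPM in the same order of goats, and at 0, 2, 1, 2 and 2 TPM in the same order of cows. Its log2 difference was 5.19 (standard error 0.38, adjusted p = 1.65e-08, limma). For both, cow 1 was the animal listed at 0. Both passed the filter of the test through the goats, so the direction of these calls was in effect fixed as well.

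A further 4 entries were found in goats at a mean of 20.8 to 41.2 TPM and in some cows at 1 or 2 TPM. miR-493, the first gene of the cluster, was at 56, 22, 29 and 58 TPM in goats 17, 44, 79 and 127, and at 1 TPM in cows 20 and 62. miR-382 was at 47, 27, 29 and 28 TPM in the same goats, and at 1, 2 and 1 TPM in cows 2, 20 and 62. Goat 17 stood apart for miR-382, and the other goats were within 2 TPM of each other. miR-411c-5p was at 30, 20, 27 and 33 TPM in goats, and miR-323 at 25, 19, 10 and 29 TPM, and both were found in cow 2 alone, at 1 TPM. The log2 differences of these entries were 4.89 for miR-493, 4.32 for miR-382, 4.61 for miR-411c-5p and 4.15 for miR-323 (adjusted p from 5.57e-09 to 6.66e-08, limma). All 4 passed the filter of the test through the goats, so the direction of these calls was in effect fixed by it.

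miR-494 was listed at 0 in all 5 cows while it was at 63, 37, 43 and 72 TPM in goats 17, 44, 79 and 127. Its goat mean of 53.8 ± 16.5 TPM (SD, n = 4) was above those of miR-493 and miR-382, which were found in cows. For miR-379 the goat mean was 49.1 times the cow mean, and at that ratio a goat mean of 24.6 TPM would correspond to 0.5 TPM in cows. Among the 23 entries at 0 in all cows, miR-494 was above this goat mean and the other 22 were below it, with 13.0 TPM as their highest. No source used here says whether values were rounded or truncated to whole TPM. At a limit of 1 TPM in cows, which truncation would give, the corresponding goat mean was 49.1 TPM, still below that of miR-494. The ratio varied between entries found in cows, from 29.9 for miR-411a to 137.5 for miR-411c-5p. At 59.3, the ratio of miR-154c, miR-494 would be under 1 TPM in cows and could go unseen with truncation. Whether miR-494 stands apart from the other 22 thus depends on the ratio taken. For these 22 entries a cow mean in the ratio of miR-379 would be under 0.5 TPM and could go unseen in whole TPM. A value of 0 thus does not show that they were absent. A single animal can still pass the limit, since miR-323, with a goat mean of 20.8 TPM, was at 1 TPM in cow 2.

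The other entries with a mean of at least 10 TPM in goats were miR-543, miR-370 and miR-487b, all listed at 0 in every cow. miR-543 was at 20, 11, 8 and 13 TPM in goats 17, 44, 79 and 127, and miR-370, whose gene stands between the RTL1 group and the distal block, at 15, 8, 8 and 13 TPM. miR-487b was at 15, 2, 8 and 16 TPM and varied most between goats among the 13 entries, with a coefficient of variation of 63.9%. The lowest coefficient of the 13 was 20.2%, for miR-411c-5p. Their median was 33.2%, against 32.3% for all 146 entries with a goat mean of at least 10 TPM.

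**Figure D2:**
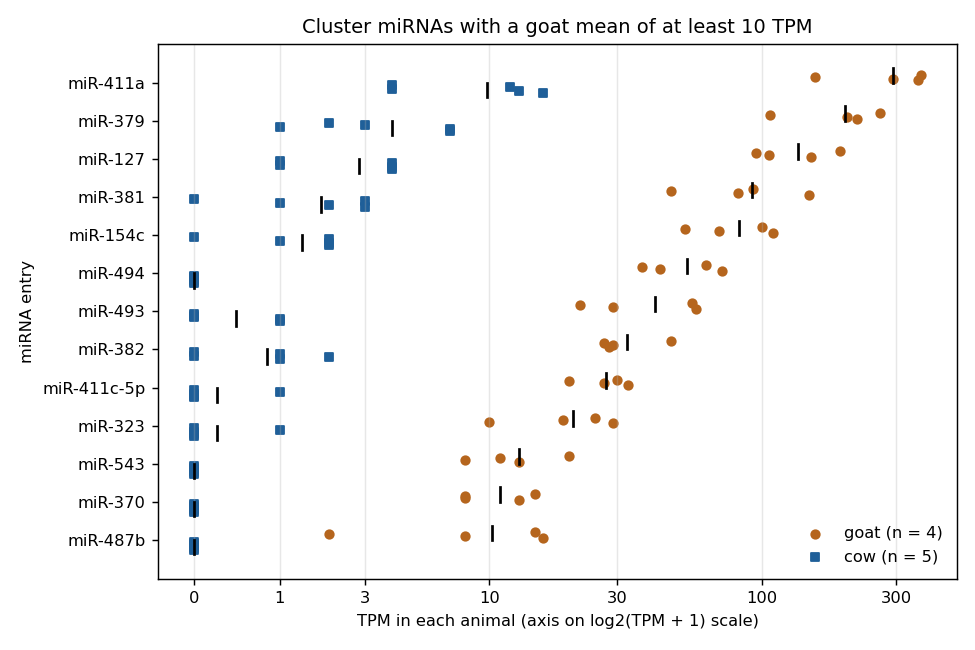
TPM of the 13 entries with a goat mean of at least 10 TPM, on a log2(TPM + 1) axis. Circles are the 4 goats, squares the 5 cows and vertical bars the species means. In all 13 entries the goats lie to the right of the cows, from 2 TPM upward for miR-487b to between 154 and 367 TPM for miR-411a.

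The remaining 19 entries had goat means from 0.250 to 9.75 TPM, and all were listed at 0 in cows. miR-369-3p, miR-495 and miR-655 led them, with goat means of 9.75, 9.50 and 9.00 TPM. miR-369-3p and miR-369-5p, from opposite arms of the same hairpin, had means of 9.75 ± 4.99 and 6.5 ± 2.38 TPM (SD, n = 4), and their ranges overlapped. miR-154b, miR-432, miR-410, miR-433, miR-758, miR-380-3p and miR-656 had goat means from 4.00 to 7.00 TPM. miR-433, also encoded opposite RTL1, was the entry for which goat 17 was lowest, at 3 TPM. miR-409a, miR-485, miR-411b and miR-136 had goat means from 2.25 to 2.75 TPM. miR-485 acts at synapses in rat neurons. miR-665, miR-376e, miR-299 and miR-377 had goat means of at most 1.00 TPM. miRNAs of the miR-376 family are known from human and mouse for adenosine-to-inosine editing of the seed, and edited reads were not analysed here.

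Levels differed widely between neighbouring genes of the cluster, as TPM without correction for mature length. In the gene order, MIR379 and MIR411A, at places 9 and 10, gave the highest goat means, and the next gene, MIR299, gave 0.50 TPM. In the RTL1 group, miR-127 was at 135 TPM in goats, and its neighbours miR-433 and miR-432 were at 5.50 and 7.00 TPM. The 4 entries of the RTL1 group took 13.6% of the goat cluster sum and 13.1% of that in cows. The 25 entries from MIR379 to MIR656 took 81.5% in goats and 85.0% in cows. miR-493 and miR-665, ahead of the RTL1 group, took 3.85% and 1.87%, and miR-370 took 1.00% in goats and was listed at 0 in cows. The cow shares rest on values of a few TPM.

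**Figure D3:**
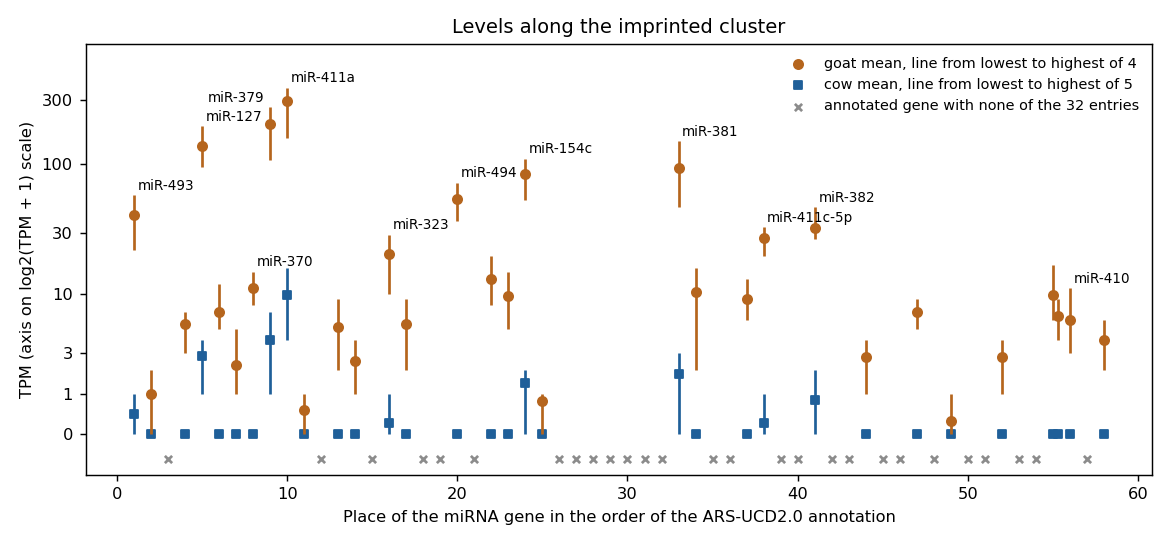
Goat (circles) and cow (squares) mean TPM of each entry on a log2(TPM + 1) axis, placed by the order of the miRNA genes in the ARS-UCD2.0 annotation, with lines from the lowest to the highest animal and crosses for annotated genes with none of the 32 entries. The highest goat means, 197 and 293 TPM, are side by side at places 9 and 10.

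The order of the entries was similar in the 4 goats, while their totals differed. Goat 127 was the single highest goat for 17 entries and goat 17 for 10, while goat 44 was the single lowest for 17 and goat 79 for 7. Across the 24 entries above 1 TPM in all goats, Spearman's rho between 2 goats was 0.86 to 0.95, where the entries are not independent replicates and share the library. miR-411a, miR-379, miR-127, miR-381 and miR-154c together made up 69.3% to 77.3% of the cluster sum in goats and 88.9% to 100% in cows. Of the 5 cows, 1 and 3 had the lowest sums, 7 and 8 TPM, and cows 2, 20 and 62 had 27 to 34 TPM.

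Between species, 217 entries of the table passed the filter of more than 1 TPM in at least 4 libraries, and 24 of the 32 cluster entries were among them. All 24 were called higher in goats and 0 lower, at an adjusted p of at most 1.05e-05 (limma), where 37.3% of all 217 entries were called higher and 24.0% lower. At an unadjusted p under 0.05, 0 cluster entries were lower either. Of the 24, 15 were at 0 in every cow, and only miR-411a and miR-379 were above 1 TPM in at least 4 cows, so the other 22 of the 24 entered the test through goats and their direction was in effect fixed by the filter. The median log2 difference of the 24 was 3.43, against 0.24 over all 217 entries, and it carries the same limit. Among the 155 entries above 0 in every library, a filter that asks for both species, all 3 cluster entries (miR-411a, miR-379 and miR-127) were called higher in goats, where 25.2% of the 155 were.

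**Figure D4:**
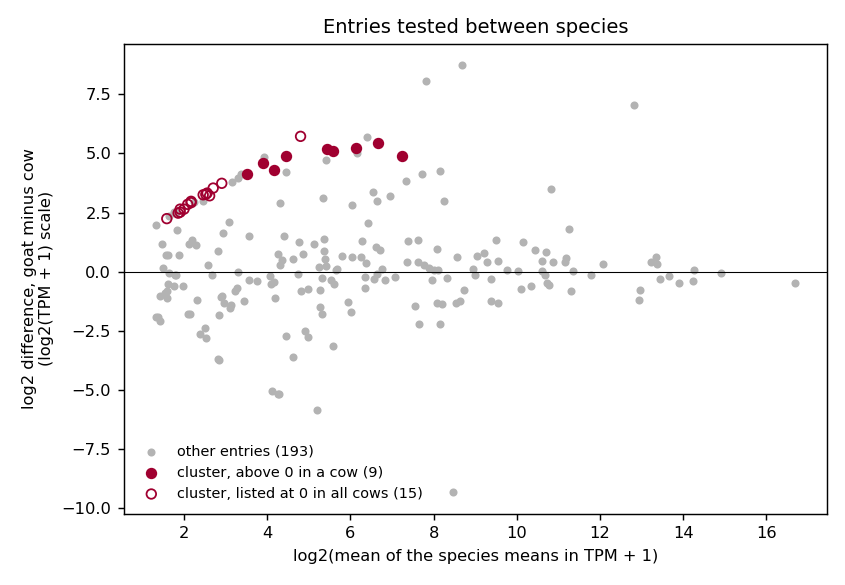
Log2 difference, goat minus cow on the log2(TPM + 1) scale, of the 217 tested entries against their mean level. Filled circles are the 9 cluster entries found in a cow, open circles the 15 listed at 0 in all cows and grey points the other 193 entries. The filled circles lie between 4.15 and 5.44.

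Of 6 further miRNAs of the same imprinted domain in a fixed list, miR-134 matched an entry of the table. miR-134, which limits dendritic spine size in rat neurons, was at 1 TPM in each goat and at 0 in each cow. Of 5 miRNAs of other imprinted loci in a fixed list, 2 matched, with 3 entries. miR-335, from an intron of MEST, was at 10, 6, 20 and 15 TPM in goats 17, 44, 79 and 127, and at 2, 2, 1, 1 and 5 TPM in cows 1, 2, 3, 20 and 62. Its log2 difference was 2.11 (standard error 0.39, adjusted p = 2.57e-04, limma). miR-335 passed the filter of the test through the goats, so the direction of this call was in effect fixed. miR-296-3p, of the GNAS locus, averaged 8.0 ± 1.15 TPM over the goats (SD, n = 4) against 4.00 ± 1.41 TPM over the cows (SD, n = 5), with a log2 difference of 0.88 (adjusted p = 0.0135, limma). Both differences were smaller than that of any cluster entry found in a cow, and whether they differ from it was not tested. Near the cluster in human but outside the domain, 3 entries matched. miR-342, also on the leukocyte list, averaged 72.0 ± 25.7 TPM over the goats (SD, n = 4) against 7.60 ± 3.29 TPM over the cows (SD, n = 5) and was higher in goats (log2 difference 3.12, limma, adjusted p = 2.19e-06), as was miR-345-5p, at 5.75 ± 2.22 against 2.00 ± 0.71 TPM (log2 difference 1.14, limma, adjusted p = 0.00490). miR-345-3p, at 49.2 ± 15.3 against 32.6 ± 6.66 TPM, missed the threshold (log2 difference 0.55, limma, adjusted p = 0.105).

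The summed leukocyte markers and miR-143 of the stromal list moved with the cluster between species. All 6 leukocyte miRNAs of the list matched, with 7 entries, and summed to 444 to 1230 TPM in the goats against 17 to 52 TPM in the cows. Of these entries, miR-142-3p was at 0 in goat 127 and in 4 cows, and miR-223 was at 0 in cows 2 and 3. The species met at 2 TPM for miR-150, with 2 to 9 TPM in goats and 1 to 2 TPM in cows. The stromal, endothelial and smooth muscle list, with 3 of 5 miRNAs matched, summed to 217 to 425 TPM in the goats against 19 to 30 TPM in the cows, nearly all of it miR-143, and miR-145 was at 0 in all cows. The remaining entry of that list, the endothelial miR-126-3p, averaged 1.00 ± 1.41 TPM over the goats (SD, n = 4) against 2.80 ± 2.17 TPM over the cows (SD, n = 5) and missed the threshold (log2 difference -0.92, limma, adjusted p = 0.144). Muscle miRNAs (2 of 4 matched) summed to 88 to 201 TPM in goats and 49 to 97 TPM in cows, nearly all of it miR-499. With overlapping ranges, miR-499 was called higher in goats (log2 difference 1.04, limma, adjusted p = 0.0077). Red blood cell miRNAs (2 of 3 matched) summed to 1 to 37 TPM in goats and 0 to 10 TPM in cows. In neuron miRNAs (3 of 5 matched) the ranges of the sum, nearly all of it miR-128, overlapped, the goats spanning 137 to 412 TPM and the cows 210 to 326 TPM. Of the other entries, miR-9-5p was at 2 to 35 TPM in goats and 0 to 4 TPM in cows and missed the threshold (log2 difference 1.65, limma, adjusted p = 0.0504). miR-138 was at 2 TPM in goats 44 and 79 and at 0 in all other animals. The mammary epithelial list (6 of 6 matched) overlapped as well, the goats spanning 26830 to 45365 TPM and the cows 30424 to 43532 TPM, but single entries did not. Its miR-205 was at 12 to 25 TPM in goats and at 0 in 4 cows, and its miR-141 was lower in goats, at 245 to 572 TPM against 650 to 1204 TPM (log2 difference -1.26, limma, adjusted p = 0.00131). Within goats the order differed, and goat 127 had the lowest leukocyte and stromal sums, 444 and 217 TPM, and with 1367 TPM the cluster sum next to the highest. Cow 1 had the highest leukocyte sum of the cows, 52 TPM, and the lowest cluster sum, 7 TPM. The part of these cell types in the difference between species was not tested.

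**Figure D5:**
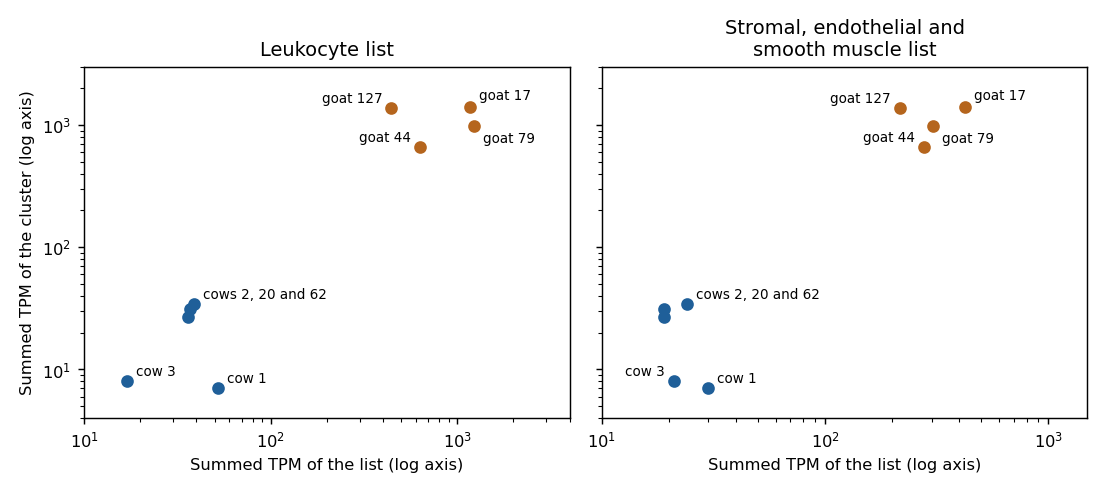
Summed TPM of the cluster against the summed TPM of the leukocyte list (left) and of the stromal, endothelial and smooth muscle list (right), 1 point per animal, on log axes. Goats and cows form 2 separate groups in both panels, with goat 127 at the left end of the goats at 444 and 217 TPM.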

How the data were processed

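The deposited score is the authors' TPM, tag numbers scaled to a fixed total, written as whole numbers for 296 bovine miRBase entries in 9 libraries of milk-derived EVs. The authors trimmed adapters, mapped reads with the bovine reference for both species and normalized the counts. For the mapping program and the genome build, nothing is given in the sources used here. TPM keep no read number, so the depth per library and counting error are unknown, and no interval was computed. Listed entries summed to 239233 to 420029 TPM per library. No 2 libraries of a species held equal values.

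Animals were grouped by species from their titles, each animal being a replicate. All entries above 1 TPM in at least 4 libraries entered a linear model of log2(TPM + 1) on species (limma 3.58.1, R 4.3.3, variance trend), with Benjamini-Hochberg adjustment over the 217 entries and a threshold of 0.05. Fold changes on this scale understate the change of low entries. The fit was tested on simulated data with normal errors, without the floor at 0 and the whole-number steps of the real values. That check therefore does not bear on entries listed at 0 in cows. Members and lists were chosen with earlier results of these data known. Entries averaging 10 TPM or more in either species are given in full, the others by ranges. Gene names and order come from RefSeq (ARS-UCD2.0), sequences from the table. Other tables were made with Python 3.11. The alternatives were other pseudocounts, filters, scalings and limma settings, leaving out each animal, and, added after seeing the data, a worst case of rounding.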

Additional observations from a re-analysis of the deposited data

Results flagged for a closer look

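In 49 sets of values per species, 6 single animals stood apart from the rest of their species by Dixon's test. By chance this test marks about 1 in 20 sets of continuous values, and many sets here hold tied whole numbers. Goat 17 was high for miR-382, at 47 TPM, and for miR-432, at 12 TPM. Cow 2 was the animal in which miR-411c-5p and miR-323 were found among cows, at 1 TPM each. Goat 44 was at 0 TPM for miR-376e, which the other goats had at 1 TPM, and goat 127 was the animal with miR-377, at 1 TPM. The last 4 of these rest on a step of 1 TPM, the smallest the table can show. A set in which 1 animal differs from tied others is always marked, so the rate of 1 in 20 does not apply to them.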

How the results depend on the processing

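The 13 entries given in full kept their call in all 246 values computed under the alternatives, but this bears on stability only for miR-411a and miR-379, since the others entered through goats and their direction was in effect fixed. For miR-411a and miR-379 it does not bear on stability under the filter of 10 TPM either. Without a filter 30 of the 32 entries were called higher in goats, where 34.1% of all 296 entries were. With more than 10 TPM asked for in 4 libraries 9 of 9 tested were called (31.3% of 150 entries). All 9, with miR-411a and miR-379 among them, entered that setting through goats, so their direction was in effect fixed there. With values above 0 asked for in every library 3 of 3 were called (25.2% of 155). Fewer entries could be tested under both of these filters. Under all other settings 24 of 24 were called, beside 34.6% to 44.7% of all 217 entries, and 0 were lower in goats under any. With each of the 9 animals left out in turn, 24 entries were called higher, over the same 217 entries tested. The size of a difference depended on the pseudocount: miR-494 went from 9.02 with 0.1 to 2.64 with 10 on the log2 scale, and miR-411a from 5.04 to 3.91. With rounding taken against the difference, an alternative chosen after seeing the data, miR-411a was at 4.79 and miR-494 at 5.13. The ratio of summed levels was 53.0 when scaled to the listed total, 47.9 when scaled without miR-148a and 49.0 with median-of-ratios scaling. Goats had on average 24.2 more entries above 0 than cows, 23.2 more above 1 TPM and 12.7 more above 10 TPM, and 23.5 to 25.0 more above 0 with 1 animal left out. No paired analysis was possible because the labels give goats and cows no shared replicate numbers. The whole TPM limit what can be seen in cows, where 9 of the 32 entries had any value above 0.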

Other observations

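The ratio of miR-411a to miR-379 within a library, which no scaling of the library changes, was chosen after the values were seen and is given as a description. It was 1.40, 1.44, 1.47 and 1.65 in goats 17, 44, 79 and 127, and 2.00, 4.00, 4.00, 1.86 and 2.29 in cows 1, 2, 3, 20 and 62. The ranges did not overlap as written, but they rest on whole TPM, and no source used here says whether these were rounded or truncated. Rounding would allow a ratio as low as 1.40 in cow 1, level with the lowest goat. Truncation would allow 1.33 in cow 1 and 1.62 in cow 20, both under the highest goat, so the species cannot be said to be apart in this ratio.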
